A study of Mus musculus with 26 samples.

Results

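Genes of 2 pathways through which T cells sense small molecules from food were followed in T cells of the mouse Peyer's patch: 6 genes of retinoid metabolism and retinoid reception (Dhrs3, Cyp26b1, Rara, Rarg, Rxra, Aldh1a2) and 4 genes of the aryl hydrocarbon receptor pathway (Ahr, Ahrr, Tiparp, Cyp1a1). The 10 genes were chosen by name out of 25814 genes in each deposited table, and every one of them was present in all 26 tables. Peyer's patches are clusters of B cell follicles and T cell zones under the gut epithelium. All mice were C57Bl/6. The diet comparison used sorted CD4+ T cells from mice fed a conventional diet (6 libraries) or an elemental diet (6 libraries). The other comparison used CD44+ (7 libraries) and CD44- (7 libraries) T cells, all on the conventional diet. CD44 is a surface glycoprotein that is high on antigen-experienced T cells. Whether CD4 was also required in the CD44 sorts, and whether replicates were separate animals, is not stated in the labels, so p-values measure the spread between these samples, which may be technical.

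Vitamin A is taken up from food as retinol and carotenoids. Retinol is oxidised to retinal and then, by enzymes of the Aldh1a family, to retinoic acid, which binds nuclear receptors made of a retinoic acid receptor (Rar) paired with a retinoid X receptor (Rxr). In the gut, dendritic and epithelial cells make retinoic acid, and T cells exposed to it acquire gut homing receptors. Dhrs3 turns retinal back to retinol and Cyp26b1 oxidises retinoic acid for its removal, and both genes are known to be induced by retinoic acid. Ahr encodes the aryl hydrocarbon receptor, which binds indoles from plants, tryptophan breakdown products and pollutants. With its partner Arnt it binds DNA at sites with the core GCGTG and induces genes such as Cyp1a1, Ahrr and Tiparp.

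The sequence upstream of the genes is shown for the pair that rose on the elemental diet (Dhrs3, Cyp26b1) and for 3 genes known as targets of the aryl hydrocarbon receptor (Ahrr, Tiparp, Cyp1a1). Each is read 5′ to 3′ towards the gene, from RefSeq windows of the 250 bases before a gene's first listed start (build GRCm38.p6), without bases that GENCODE M21 places in an exon of the gene. For Cyp1a1 the RefSeq start lies inside the gene span used for the counts (chr9:57687928-57703824), so its window is not upstream of that span. Capitals mark GCGTG, or CACGC where it lies on the opposite strand.
Dhrs3, chr4:144892577-144892826, + strand: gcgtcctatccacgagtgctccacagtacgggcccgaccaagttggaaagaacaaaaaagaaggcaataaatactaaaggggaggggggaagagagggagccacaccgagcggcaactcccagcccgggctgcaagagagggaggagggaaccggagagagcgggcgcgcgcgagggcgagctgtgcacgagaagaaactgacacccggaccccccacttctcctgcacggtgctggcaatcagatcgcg
Cyp26b1, chr6:84593909-84594060, - strand: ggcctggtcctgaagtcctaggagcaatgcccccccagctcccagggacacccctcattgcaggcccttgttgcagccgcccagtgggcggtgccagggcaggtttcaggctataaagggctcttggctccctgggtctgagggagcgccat
Ahrr, chr13:74292332-74292581, - strand: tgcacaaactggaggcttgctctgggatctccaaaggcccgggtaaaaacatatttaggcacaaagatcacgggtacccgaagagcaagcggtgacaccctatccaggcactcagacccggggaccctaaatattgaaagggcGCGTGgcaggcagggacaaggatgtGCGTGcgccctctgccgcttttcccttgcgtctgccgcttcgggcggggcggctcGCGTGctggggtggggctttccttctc
Tiparp, chr3:65528197-65528409, + strand: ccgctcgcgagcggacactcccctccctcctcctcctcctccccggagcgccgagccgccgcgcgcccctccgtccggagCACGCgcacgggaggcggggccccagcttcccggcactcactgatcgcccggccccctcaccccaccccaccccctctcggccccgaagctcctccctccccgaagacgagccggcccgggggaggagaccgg
Cyp1a1, chr9:57697363-57697612, + strand: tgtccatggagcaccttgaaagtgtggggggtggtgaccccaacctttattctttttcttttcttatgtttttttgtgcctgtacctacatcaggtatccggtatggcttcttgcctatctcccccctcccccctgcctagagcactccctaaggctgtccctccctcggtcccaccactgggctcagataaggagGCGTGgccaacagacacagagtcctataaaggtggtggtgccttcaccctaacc
Ahrr held 3 GCGTG cores, Tiparp 1 on the opposite strand and Cyp1a1 1. The Dhrs3 and Cyp26b1 windows held none, and 28.1% of all 32817 RefSeq windows of this length held at least 1 on either strand. Retinoic acid receptors bind pairs of a hexamer, such as AGGTCA or AGTTCA, set a few bases apart. Neither hexamer was in the 5 windows shown on either strand, so no motif overlapped another, against 14.03% of all windows with AGGTCA and 11.9% with AGTTCA. The paired elements DR5 (0.0884% of all windows) and DR2 (0.174%) were in none of the 16 windows of the 9 matched genes, all but Ahr. The first Dhrs3 window was 61.6% G and C, beside a median of 52.4% over all windows. The full Cyp26b1 window of 250 bases, with the 98 exon bases left out above, was 64.8%. All shares over RefSeq windows are for 250 bases, while the stretches shown for Cyp26b1 and Tiparp held 152 and 213. A match of these letters is a description of the window and not a binding site.

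The CD4+ libraries held 16401589 to 25415205 exon reads each, and the CD44 libraries 7180390 to 13378353. Levels are given as CPM, the usual unit of exon reads relative to the scaled library size, and log2 fold changes are from edgeR's quasi-likelihood test with Benjamini-Hochberg adjustment over all genes tested. The CD4+ libraries were made from 22 ng of RNA with a standard kit and the CD44 libraries from 1 ng with a low-input kit, so population and kit cannot be told apart and these pairs of groups were not tested against each other. T cell markers were present in every library: in the CD4+ libraries Cd3e was at 205 ± 8.90 CPM (SD, n = 6) on the conventional and 177 ± 21.2 CPM (n = 6) on the elemental diet, and Cd4 at 353 ± 78.6 and 239 ± 45.9 CPM. In the CD44- and CD44+ libraries Cd3e was at 1212 ± 495 and 1964 ± 589 CPM (SD, n = 7 each), and Cd4 at 166 ± 157 and 38.8 ± 22.2 CPM. In conventional replicate 6, 31.8% of the tested genes had their lowest value of the 6 libraries, and that library was also lowest for 6 of the 9 genes of interest that were tested. Elemental replicate 6 was likewise lowest of its diet for 6 of the 9, and for 18.8% of the tested genes.

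On the elemental diet, 2 of the 9 tested genes rose and none fell: Cyp26b1 was 4.25-fold and Dhrs3 1.98-fold higher. Of all 11938 genes tested, 17.4% were called in either direction, 9.68% higher and 7.75% lower, so a count of 2 in 9 is close to what the whole table shows. The receptors Rara, Rarg, Rxra and Ahr and the receptor targets Ahrr, Tiparp and Cyp1a1 did not pass the test. Aldh1a2 had too few reads to be tested. The groups did not overlap for Dhrs3 and Cyp26b1, beside 7.16% of all tested genes whose groups did not overlap.

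Dhrs3 (ENSMUSG00000066026, chr4:144892827-144928209, + strand), the retinal reductase, lay between 21.5 and 30.0 CPM on the conventional diet, with a median of 24.4. On the elemental diet it lay between 41.9 and 62.8 CPM, with a median of 48.1. The lowest elemental library, replicate 2, was thus above the highest conventional one, replicate 6. Means were 25.5 ± 3.50 CPM (SD, n = 6) and 50.4 ± 7.81 CPM (n = 6), and the log2 fold change was 0.99 ± 0.12 (SE, edgeR adjusted p = 1.40e-04). These values rest on 475 to 689 and 772 to 1396 exon reads per library. The difference was of similar size whichever library was left out, from 0.92 to 1.04.

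Cyp26b1 (ENSMUSG00000063415, chr6:84571414-84593908, - strand), the retinoic acid hydroxylase, lay between 1.45 and 3.34 CPM on the conventional diet, with a median of 2.13. On the elemental diet it lay between 5.29 and 11.9 CPM, with a median of 9.95. All 6 elemental libraries were above all 6 conventional ones, and elemental replicate 6 was the lowest of its group. Means were 2.23 ± 0.678 CPM (SD, n = 6) and 9.46 ± 2.56 CPM (n = 6), with a log2 fold change of 2.09 ± 0.26 (SE, edgeR adjusted p = 1.54e-04). The gene was rare, at 33 to 79 reads per library against 85 to 259. Of its exon reads, 7.24% and 5.71% spanned a splice junction on the conventional and elemental diet, beside 29.3% and 30.3% over all genes. Leaving out 1 library gave 1.99 to 2.25. When the 4 groups shared 1 estimate of the spread, neither gene passed (edgeR adjusted p = 1 for Dhrs3 and 0.393 for Cyp26b1), and 2 genes passed in the whole table.

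**Figure D1:**
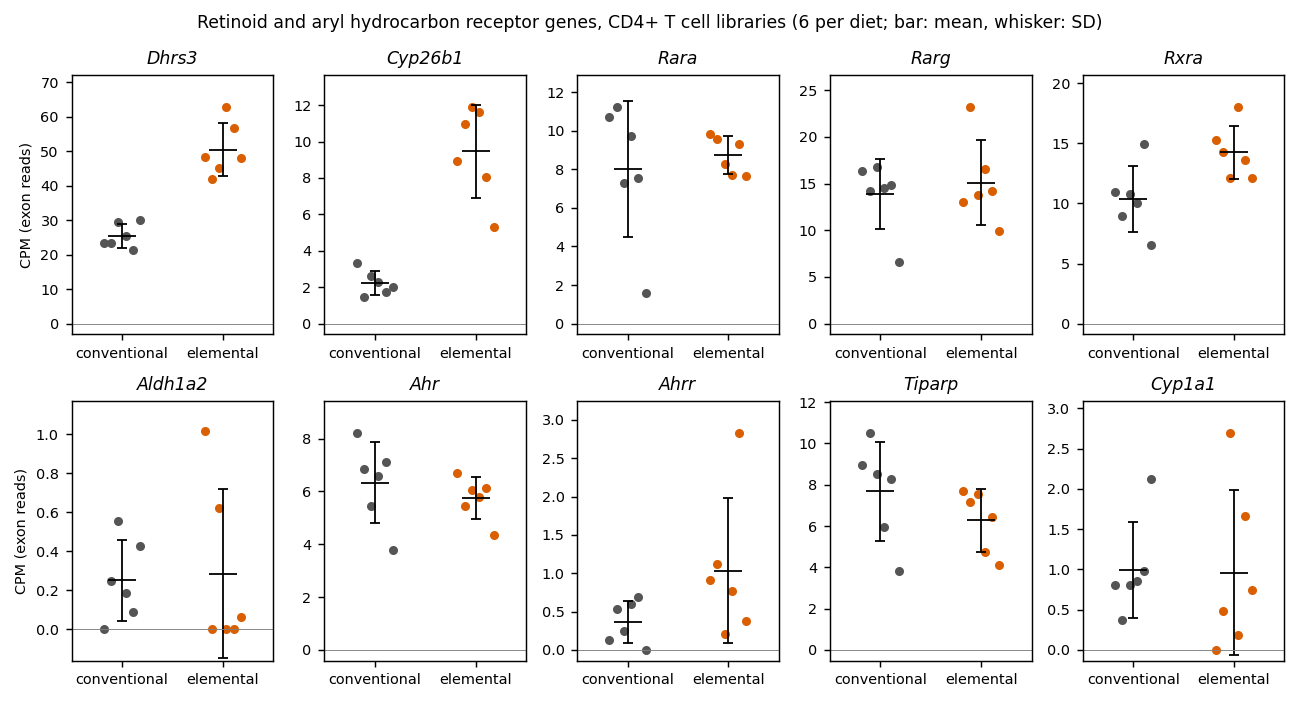
Level of each gene in the CD4+ libraries, in CPM of exon reads on a linear axis of its own per panel, by diet. Points are libraries (6 per diet), the bar is the mean and the whisker the SD. Dhrs3 (21.5 to 30.0 against 41.9 to 62.8 CPM) and Cyp26b1 (1.45 to 3.34 against 5.29 to 11.9 CPM) are the genes whose groups do not overlap.

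Markers of other cell types moved with diet in the same libraries. In bulk samples, fewer cells of a type and less RNA per cell cannot be told apart. Of 13 tested markers of myeloid and dendritic cells 11 rose, and their summed level was 423 to 561 CPM on the conventional and 792 to 1419 CPM on the elemental diet, with no overlap. Of 20 epithelial markers 8 rose, with a summed level of 102 to 1506 CPM (median 532) against 1249 to 2819 CPM (median 2426). The 5 tested markers of germinal centre B cells fell, from a summed 79.4 to 159 CPM to 27.7 to 38.5 CPM. S1pr2 alone held much of this sum, at 61.7 ± 10.9 CPM (SD, n = 6) on the conventional and 28.1 ± 1.76 CPM (n = 6) on the elemental diet. The other tested markers of this list had log2 fold changes of -2.89 to -3.65. The sum is the level of a gene list and not a measured share of these cells. Of 13 T cell core markers 5 fell. Plasma cell markers fell in 3 of 6 tested, with a summed 925 to 1965 CPM on the conventional and 398 to 871 CPM on the elemental diet, and B cell markers in 3 of 10. The summed innate lymphoid, gamma-delta T and NK cell markers were at 108 to 140 against 84.5 to 100.3 CPM, with 1 of 5 higher and 1 lower. That list held no gamma-delta receptor gene. Most of its sum came from Klrb1c (51.8 ± 8.16 and 27.0 ± 4.49 CPM) and Nkg7 (51.0 ± 16.9 and 40.2 ± 5.91 CPM). No marker of these lists was at 0 in every library of a diet.

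The summed epithelial level overlapped between the diets. Conventional replicate 6 had 1506 CPM of epithelial markers, above elemental replicate 3 (1249 CPM) and next to elemental replicate 2 (1504 CPM). In these 3 libraries Cyp26b1 was at 2.01, 11.9 and 11.0 CPM, and Dhrs3 at 30.0, 45.1 and 41.9 CPM, in that order. Among the elemental libraries Cyp26b1 was highest in replicate 3 (11.9 CPM), which had the least epithelial signal. It was nearly as high in replicate 4 (11.6 CPM), which had the most. It was lowest in replicate 6 (5.29 CPM), with an epithelial sum of 2626 CPM. Dhrs3 was lowest in elemental replicates 2 and 3, which had the lowest epithelial sums. It was highest in elemental replicates 4 (62.8 CPM) and 5 (56.8 CPM), which had the highest sums (2819 and 2755 CPM). On the conventional diet Dhrs3 was highest in replicate 6, with the highest sum. It was lowest in conventional replicate 5 (21.5 CPM), with the next highest sum (795 CPM). The myeloid, germinal centre B cell, plasma cell and innate lymphoid sums did not overlap between the diets, nor did Dhrs3 and Cyp26b1. The part of the epithelial or any other of these markers in the difference of the 2 genes was not tested.

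**Figure D2:**
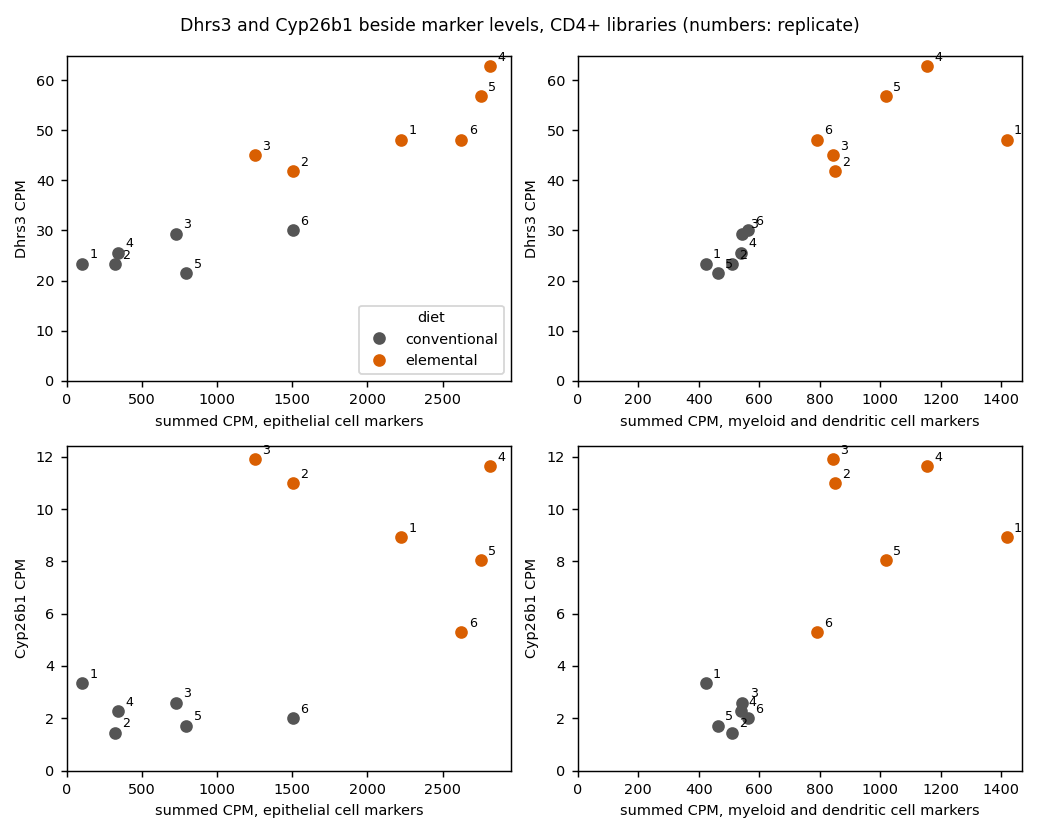
Dhrs3 (top) and Cyp26b1 (bottom) in CPM against the summed CPM of epithelial markers (left) and of myeloid and dendritic cell markers (right) in the 12 CD4+ libraries, with replicate numbers beside the points. Conventional replicate 6 and elemental replicate 2 have nearly the same epithelial sum (1506 and 1504 CPM) and lie apart in both genes. Among the elemental libraries Dhrs3 is highest in replicates 4 and 5, which have the highest epithelial sums (2819 and 2755 CPM). Cyp26b1 is highest in elemental replicate 3 (11.9 CPM), which has the lowest epithelial sum of that diet. It is nearly as high in elemental replicate 4 (11.6 CPM), which has the highest.

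Among the receptors, Rxra (ENSMUSG00000015846, chr2:27676440-27762957, + strand), the common partner of the retinoic acid receptors, lay between 6.57 and 14.9 CPM on the conventional diet, with a median of 10.4. On the elemental diet it lay between 12.1 and 18.0 CPM, with a median of 13.97. All 6 elemental libraries were above the conventional mean of 10.4 ± 2.76 CPM, and conventional replicate 5 (14.9 CPM) was inside the elemental range. Rxra differed by a log2 fold change of 0.46 ± 0.18 (SE, edgeR adjusted p = 0.0852), not called. It passed without conventional replicate 5 (0.59, edgeR adjusted p = 0.0366) and with limma-voom and quality weights (0.43, adjusted p = 0.0417).

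Rara (ENSMUSG00000037992, chr11:98927818-98974942, + strand) and Rarg (ENSMUSG00000001288, chr15:102234938-102257517, - strand) encode the retinoic acid receptors alpha and gamma. Rara lay between 1.58 and 11.2 CPM (median 8.66) on the conventional and between 7.66 and 9.84 CPM (median 8.81) on the elemental diet. The value of 1.58 CPM, from 26 reads, was that of conventional replicate 6, and the other conventional libraries were at 7.29 CPM or more. The log2 fold change of Rara was 0.12 ± 0.31 (SE, edgeR adjusted p = 0.810) and became -0.09 without that library.
Rarg lay between 6.57 and 16.7 CPM (median 14.7) on the conventional and between 9.90 and 23.2 CPM (median 14.01) on the elemental diet. Conventional replicate 6 was again lowest, elemental replicate 2 was highest, and the diets overlapped. The log2 fold change was 0.12 ± 0.22 (SE, edgeR adjusted p = 0.720), and it was -0.02 without conventional replicate 6 and -0.04 without elemental replicate 2. Neither receptor therefore had a stable direction.

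Aldh1a2 (ENSMUSG00000013584, chr9:71215789-71296243, + strand), the enzyme that makes retinoic acid, had 0 to 9 exon reads per conventional library and 0 to 20 per elemental library. It was at 0 reads in 1 conventional and 3 elemental libraries. A library with 0 reads allows up to 3 reads, or 0.111 to 0.187 CPM across the CD4+ libraries, counting error only. Elemental replicates 1 (1.02 CPM) and 3 (0.62 CPM) held 32 of the 33 elemental reads. No difference was detectable at this depth.

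Ahr (ENSMUSG00000019256, chr12:35497974-35535038, - strand), the receptor itself, lay between 3.77 and 8.20 CPM (median 6.72) on the conventional and between 4.36 and 6.68 CPM (median 5.93) on the elemental diet. The elemental range lay inside the conventional range, with replicate 6 lowest on both diets. Ahr differed by -0.14 ± 0.20 on the log2 scale (SE, edgeR adjusted p = 0.649). Ahr shares 127 exon bases with the antisense gene Gm48236, and Tiparp shares 223 with the antisense pseudogene 4931440P22Rik. The strand setting of the counting is not given in the sources used here, so reads of these stretches cannot be assigned to either gene.

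Of the 3 receptor targets, Tiparp (ENSMUSG00000034640, chr3:65528410-65555518, + strand), an ADP-ribosyltransferase that dampens the receptor, lay between 3.83 and 10.5 CPM (median 8.41) on the conventional and between 4.11 and 7.70 CPM (median 6.82) on the elemental diet. The diets overlapped, and replicate 6 was lowest on each. Its log2 fold change was -0.29 ± 0.24 (SE, edgeR adjusted p = 0.413).
Ahrr (ENSMUSG00000021575, chr13:74211118-74292331, - strand), which encodes the repressor of the receptor, lay between 0 and 0.684 CPM (median 0.392) on the conventional and between 0.207 and 2.83 CPM (median 0.841) on the elemental diet. These are 0 to 16 and 4 to 46 reads per library, and elemental replicate 5 alone held 46 of the 112 elemental reads. Ahrr differed by 1.45 ± 0.72 on the log2 scale (SE, edgeR adjusted p = 0.166), with 5 of 6 elemental libraries above the conventional mean. It was 0.85 at the lowest when 1 library was left out.
Cyp1a1 (ENSMUSG00000032315, chr9:57687928-57703824, + strand), the cytochrome most often used to read receptor activity, lay between 0.372 and 2.13 CPM (median 0.827) on the conventional and between 0 and 2.69 CPM (median 0.615) on the elemental diet. Its lowest and highest values were both elemental, in replicates 1 and 3. Cyp1a1 differed by -0.04 ± 0.74 on the log2 scale (SE, edgeR adjusted p = 0.972). The 4 genes of the aryl hydrocarbon receptor pathway thus gave no call between the diets, and for Ahrr and Cyp1a1 the standard errors were 0.72 and 0.74, beside a median of 0.18 over all tested genes.

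**Figure D3:**
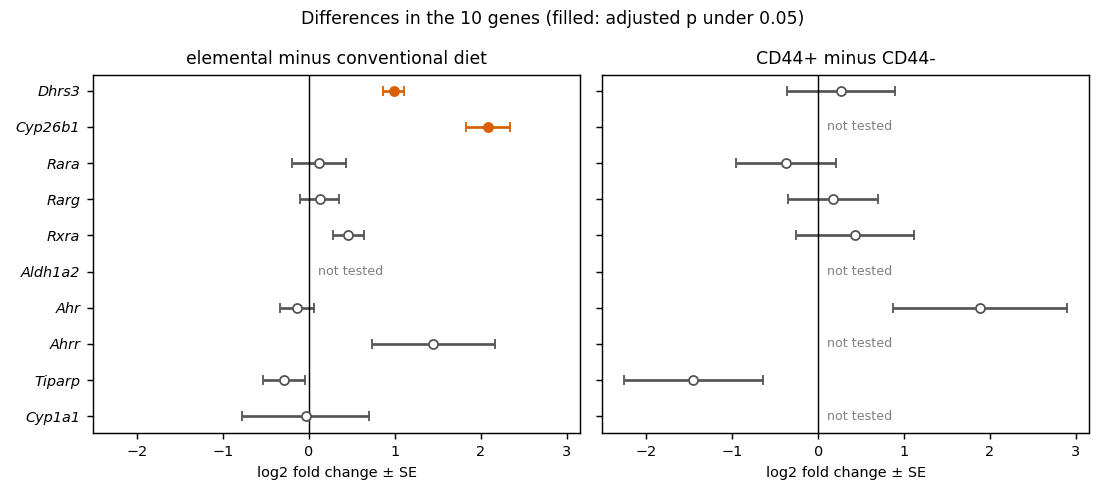
Log2 fold change of each gene with its SE (whisker), elemental minus conventional diet (left) and CD44+ minus CD44- (right). Filled points passed an adjusted p of 0.05 in edgeR: Dhrs3 (0.99) and Cyp26b1 (2.09) on the left, and no gene on the right.

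Set per kilobase of exon, which allows levels of different genes to be compared, Dhrs3 was the highest of the 10 genes on both diets, at 9.90 ± 1.36 CPM per kilobase (SD, n = 6) on the conventional and 19.6 ± 3.03 on the elemental diet. Rarg followed on both diets (3.61 ± 0.970 and 3.94 ± 1.18). On the conventional diet Rxra (2.00 ± 0.532), Rara (1.87 ± 0.827) and Tiparp (1.83 ± 0.57) came next and lay within one another's SD. Ahr (1.14 ± 0.277) was below them, and its distance from Rara was less than the SD of Rara. Cyp26b1 (0.416 ± 0.127) and Cyp1a1 (0.355 ± 0.213) lay within one another's SD. Aldh1a2 (0.110 ± 0.0923) and Ahrr (0.0767 ± 0.0585) were lowest and lay within one another's SD. On the elemental diet Cyp26b1 reached 1.77 ± 0.478 CPM per kilobase, less than its own SD below Rara (2.04 ± 0.226).

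Within the diets, each diet's mean was subtracted and genes were correlated over the 12 libraries. Pearson's r was 0.84 for Rara with Ahr, 0.78 for Ahr with Tiparp and 0.76 for Rara with Tiparp. Rarg was similar, at 0.76 with Rara and 0.69 with Tiparp. Many other genes were closer: by correlation with Rara, Ahr ranked 198 and Tiparp 679 among the tested genes, and by correlation with Ahr, Tiparp ranked 701. For Dhrs3 with Cyp26b1 r was 0.12. These correlations describe 12 libraries, within each of which the genes share depth and preparation, and conventional replicate 6 was the lowest conventional library in Rara, Rarg, Rxra, Ahr, Ahrr and Tiparp. Elemental replicate 6 was the lowest elemental library in Cyp26b1, Rara, Rarg, Rxra, Ahr and Tiparp. The genes of the whole table closest to Dhrs3 were Vamp3 (r = 0.92), Fam189b (0.91) and Bet1 (0.90), and those closest to Cyp26b1 were Gm9938 (0.93), Klhl9 (0.90) and Pex26 (0.90). Rara was closest to Zfp46 (0.97), Herc2 (0.96) and Zfp712 (0.95), and Ahr to Tmx4 (0.98), Taf1 (0.97) and Kdm4c (0.96). Rarg was closest to Ero1l (0.94), Rxra to App (0.91) and Tiparp to Tmem57 (0.93).

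Other genes of both pathways were followed in 6 lists of 80 genes, of which 79 were in the tables and 57 were tested between the diets. Of these, 12 rose and 3 fell, or 26.3% called beside 17.4% of all genes. The lists were chosen with earlier results of these data known, so these shares cannot be read as an enrichment. Most of the calls were in retinoid metabolism and binding, where 9 of 21 tested genes rose, 1 fell and the median log2 fold change was 0.75, beside -0.01 over all genes. The largest were the retinol dehydrogenase Rdh7 (5.10 ± 4.06 to 39.0 ± 15.7 CPM, log2 fold change 2.96 ± 0.54, adjusted p = 0.00479, edgeR) and the retinol-binding protein Rbp7 (0.339 ± 0.438 to 2.40 ± 1.40 CPM, 2.92 ± 0.84, adjusted p = 0.0288, edgeR). Stra6l, a membrane receptor for retinol-binding protein, rose by 1.90 ± 0.48 on the log2 scale (SE), the carotenoid-cleaving Bco2 by 1.86 ± 0.40, the alcohol dehydrogenase Adh1 by 1.78 ± 0.34 and the retinol saturase Retsat by 1.59 ± 0.19. Retsat had the lowest adjusted p of the lists (1.35e-04, edgeR), at 7.24 ± 2.27 CPM on the conventional and 21.8 ± 3.10 CPM on the elemental diet.
Calls in this list ran from 6 without elemental replicate 4 to 13 without conventional replicate 6. Of the genes that rose, Rdh10 kept its call in 2 and Adh5 in 4 of the 12 fits that leave out 1 library. Both were named after their values were seen. Rbp7 no longer passed when conventional replicate 2, 4 or 5 or elemental replicate 4 or 6 was left out (edgeR adjusted p = 0.0501 to 0.0689). The gene that fell, named after its value was seen, was Fabp5, a fatty acid-binding protein that also carries retinoic acid (-0.52 ± 0.17, edgeR adjusted p = 0.0427). Its call was lost in 8 of the 12 fits that leave out 1 library (without conventional replicates 2, 4 or 6 or elemental replicates 1 to 5; edgeR adjusted p up to 0.0877) and with DESeq2's size factors (edgeR adjusted p = 0.0509). Of the genes nearest to the chosen ones, Aldh1a1 was at 10.3 ± 8.99 CPM on the conventional and 12.3 ± 2.64 CPM on the elemental diet (0.26 ± 0.50, edgeR adjusted p = 0.741). Cyp26a1 (0 to 5 and 0 to 16 reads) and Aldh1a3 (0 to 12 and 0 to 9 reads) were too rare to be tested.

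Of the 8 tested receptors and coregulators none was called by edgeR, with 5 at an unadjusted p under 0.05 and a median log2 fold change of -0.56. DESeq2 called 1 of these and limma-voom 6, and edgeR called 6 without conventional replicate 6 and 1 without conventional replicate 3. Rxrb, the retinoid X receptor with the most reads here, was at 65.5 ± 9.58 and 74.2 ± 6.69 CPM (0.18 ± 0.10, edgeR adjusted p = 0.213). Rarb (at most 7 reads in a library) and Rxrg (at most 5) were close to absent from the CD4+ libraries. Of the 8 tested response genes of retinoic acid none was called by edgeR, with 3 at an unadjusted p under 0.05, 2 called by DESeq2 and 1 by limma-voom, and a median of 0.02. Of these, Tgm2, a transglutaminase gene, was at 0.49 ± 0.17 (SE, edgeR adjusted p = 0.0528). It passed in edgeR with DESeq2's size factors (adjusted p = 0.0466), with total gene reads (0.0480) and without conventional replicate 4 (0.0465) or elemental replicate 6 (0.0437). Itga4, an integrin gene, passed without conventional replicate 6 (edgeR adjusted p = 0.0172). Tgm2 and Itga4 were named after their values were seen.

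Among the partners of the aryl hydrocarbon receptor, 1 of 7 rose and 2 fell, or 42.9% called beside 17.4% of all genes. This list too was chosen with earlier results known, so its share is a description only. The kinase Src rose from 2.78 ± 0.584 to 6.04 ± 1.34 CPM (1.12 ± 0.22, edgeR adjusted p = 0.00380). Arnt2, a relative of Arnt, fell from 3.76 ± 1.21 to 1.41 ± 0.341 CPM (-1.42 ± 0.30, edgeR adjusted p = 0.00578), and the chaperone Hsp90ab1 fell by 0.49 on the log2 scale (adjusted p = 0.0422, edgeR). Hsp90ab1 no longer passed when conventional replicate 1, 2, 4 or 5 or elemental replicate 1, 4, 5 or 6 was left out (edgeR adjusted p = 0.0714 to 0.0939), nor with library totals (0.0501) or no filter on low counts (0.0517). Arnt itself was at 22.5 ± 5.01 and 19.7 ± 3.77 CPM (-0.20 ± 0.16, edgeR adjusted p = 0.406).
Of the 10 tested response genes of the aryl hydrocarbon receptor 2 rose and none fell, or 20% beside 17.4% of all genes, with a median of 0.46. They were the glucuronosyltransferase Ugt1a7c (1.92 ± 0.45, edgeR adjusted p = 0.0154) and the growth factor receptor gene Kit (0.60 ± 0.15, edgeR adjusted p = 0.0123). Ugt1a7c is one of a cluster of genes that share exons, so its reads can belong to its neighbours. With unique exon reads it was not among the tested genes, and 1 of the 7 tested genes of this list, Kit, was called (edgeR). The Kit call was lost when libraries were scaled by their totals alone (edgeR adjusted p = 0.0701). Cyp1b1 had 0 to 16 reads per conventional and 0 to 3 per elemental library. Of the 3 tested genes that form ligands from tryptophan none was called by edgeR, with 1 at an unadjusted p under 0.05, 0 called by DESeq2 and 1 by limma-voom. That gene, Il4i1, an amino acid oxidase named after its value was seen, was at -0.53 ± 0.23 (SE, edgeR adjusted p = 0.114) and passed with the replicate block (edgeR adjusted p = 0.0222). The marker sums given above moved with diet beside these lists as well, and their part was not tested.

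**Figure D4:**
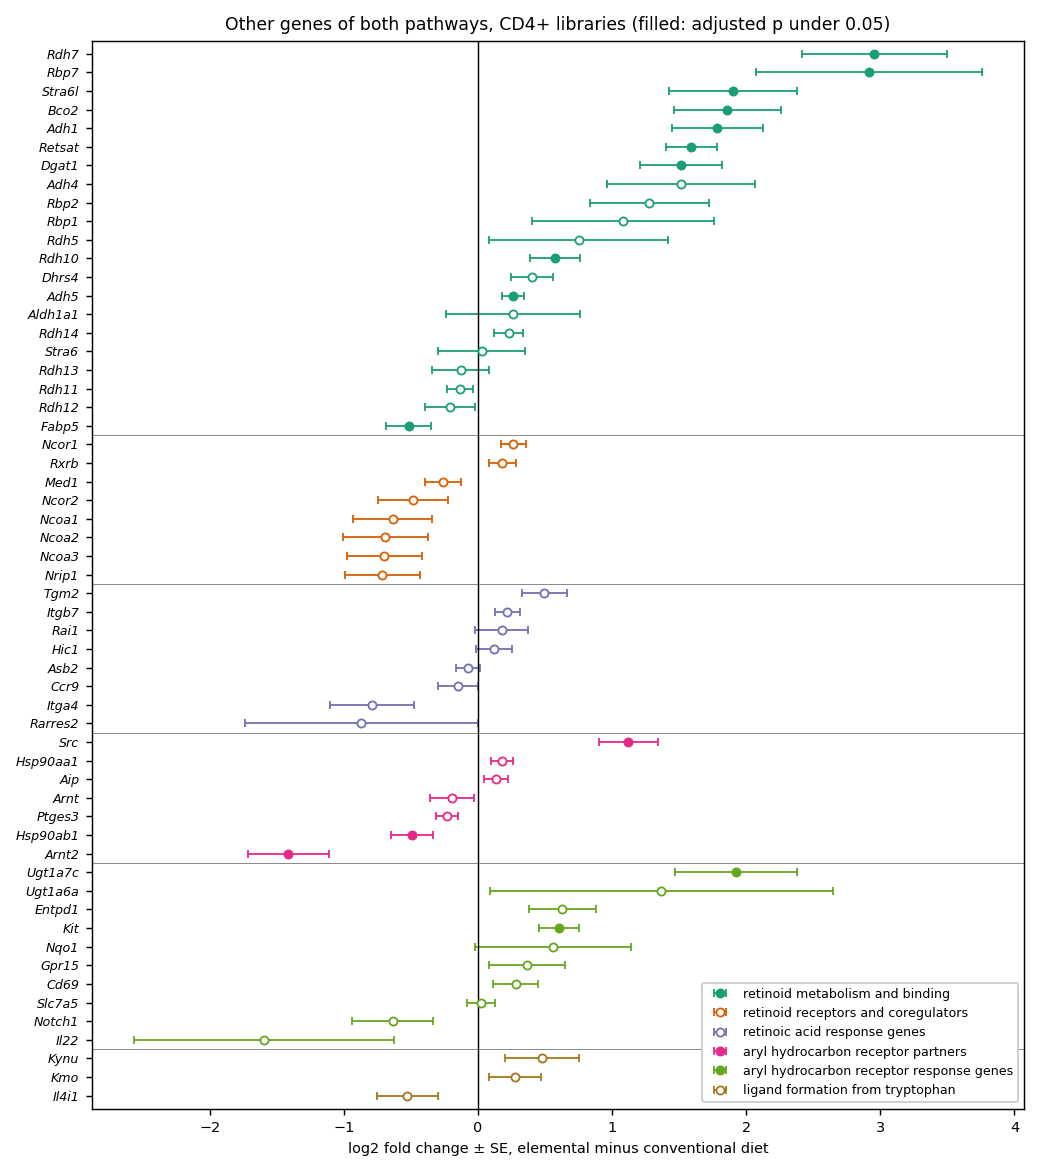
Log2 fold change, elemental minus conventional diet, with its SE (whisker) for the 57 tested genes of 6 lists, sorted within each list. Filled points passed an adjusted p of 0.05 in edgeR: 12 lie above 0 and 3 below, and 10 of the 15 are in the list of retinoid metabolism and binding.

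Between CD44+ and CD44- T cells, none of the 6 tested genes was called by edgeR, none had an unadjusted p under 0.05, and DESeq2 and limma-voom called 0. In all, 0.767% of 8343 tested genes were called, 0.3% higher and 0.467% lower, and DESeq2 called 7.75% of the genes it gave an adjusted p. The adjusted p-values of the 6 genes were 0.438 to 0.920, and their standard errors 0.52 to 1.01, against 0.12 to 0.74 between the diets. Cd44 itself was at 81.2 ± 30.2 CPM in CD44- and 157 ± 94.5 CPM in CD44+ libraries (SD, n = 7 each), with a log2 fold change of 0.95 ± 0.40 (SE, edgeR adjusted p = 0.303) and overlapping groups. It was above the CD44- mean in 7 of 7 CD44+ libraries. Plasma cell markers moved with the sort, at a summed 399 to 3136 CPM in CD44- and 3841 to 8087 CPM in CD44+ libraries, and 2 of 5 tested markers rose (edgeR). Their part in the values of the 10 genes was not tested.

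Dhrs3 lay between 23.1 and 109 CPM in CD44- libraries, with a median of 62.3. In CD44+ libraries it lay between 6.52 and 158 CPM, with a median of 32.1. CD44+ replicates 4, 5 and 8 were at 139, 145 and 158 CPM, above every CD44- library, and the other 4 were at 6.52 to 32.1 CPM. The difference of Dhrs3, CD44+ minus CD44-, was 0.27 ± 0.63 on the log2 scale (SE, edgeR adjusted p = 0.90) and -0.01 without CD44+ replicate 8. A single CD44+ library held 891 of the 1007 intron reads of Dhrs3 in that group. The genes nearest to Dhrs3 within these groups over the 14 libraries were Taf7 (r = 0.83), Dido1 (0.83) and Ddx55 (0.81).
Cyp26b1 had 0 to 1 read per CD44+ library and 0 to 2 per CD44- library. A library with 0 reads allows up to 3 reads, or 0.167 to 0.432 CPM across the CD44 libraries, and no CD44 library held more reads of Cyp26b1 than that limit. The CD4+ conventional libraries, of another kit and population, were at 1.45 to 3.34 CPM. Dhrs3, in contrast, was at 64.0 ± 34.3 CPM in CD44- and 77.0 ± 66.8 CPM in CD44+ libraries.

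The receptors were low in these libraries. Rara lay between 0.388 and 6.64 CPM (median 2.70) in CD44- and between 1.58 and 3.91 CPM (median 1.98) in CD44+ libraries, with a log2 fold change of -0.38 ± 0.58 (SE, edgeR adjusted p = 0.844). Rarg lay between 0.331 and 2.95 CPM (median 1.34) and between 1.01 and 2.63 CPM (median 1.65), at 0.17 ± 0.52 (SE, edgeR adjusted p = 0.920). Rxra lay between 0.278 and 7.72 CPM (median 2.69) and between 1.58 and 8.47 CPM (median 4.97), at 0.43 ± 0.68 (SE, edgeR adjusted p = 0.847). The CD44+ range of Rara and of Rarg lay inside the CD44- range. Aldh1a2 had at most 1 read in any CD44 library.

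Ahr lay between 0 and 5.76 CPM (median 0.899) in CD44- and between 0.396 and 26.4 CPM (median 1.31) in CD44+ libraries. CD44+ replicate 8 (183 reads) was far above the others, the next being replicate 6 at 5.82 CPM. The log2 fold change was 1.89 ± 1.01 (SE, edgeR adjusted p = 0.438), 0.42 without CD44+ replicate 8 and 2.90 without CD44- replicate 1. It was 0.63 when intron reads were counted as well.
Introns held most of the Ahr reads here: 81.9% of exon and intron reads in CD44+ and 91.5% in CD44- libraries, beside 23.5% and 19.9% over all genes. In the CD4+ libraries the Ahr share was 4.69% on the conventional and 7.15% on the elemental diet. Rara had 75.3% and 77.7% of its reads in introns in CD44+ and CD44- libraries, and Rxra 1.37% and 1.83%, so the share differed widely between receptors.

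Tiparp lay between 2.45 and 62.6 CPM (median 15.0) in CD44- and between 2.67 and 14.8 CPM (median 5.82) in CD44+ libraries. The CD44+ range lay inside the CD44- range, and CD44- replicates 8, 1, 5 and 7 (62.6, 38.3, 26.9 and 15.0 CPM) were above every CD44+ library. The log2 fold change was -1.45 ± 0.81 (SE, edgeR adjusted p = 0.464), -0.94 without CD44- replicate 8 and -0.15 with intron reads included. Within the groups Tiparp was closest to Abcg3 (r = 0.92), Bri3 (0.85) and Kif1c (0.84).
Ahrr was not tested, with 0 to 2 reads per CD44+ and 0 to 4 per CD44- library. Cyp1a1 had 173 reads (19.1 CPM) in CD44- replicate 5, 0 in the other 6 CD44- libraries and at most 1 in any CD44+ library, and none of the 173 spanned a splice junction. It did not pass the filter on low counts.

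**Figure D5:**
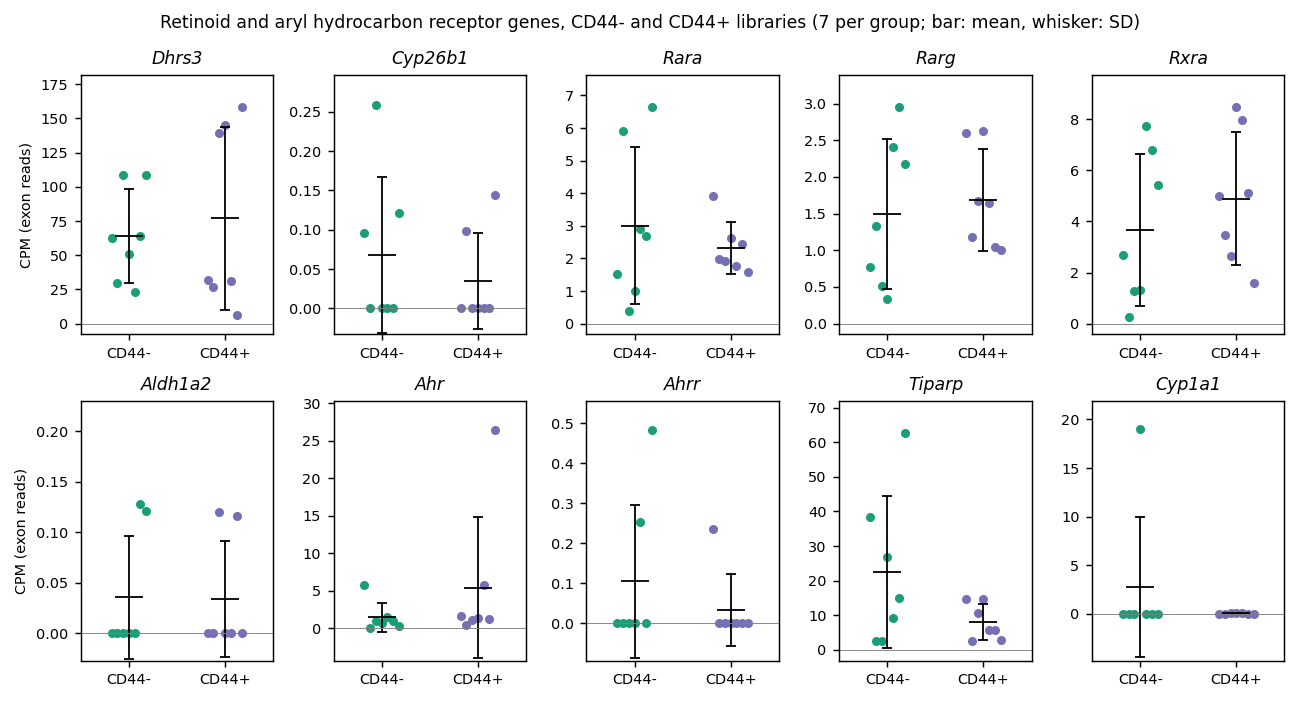
Level of each gene in the CD44- and CD44+ libraries, in CPM of exon reads on a linear axis of its own per panel. Points are libraries (7 per group), the bar is the mean and the whisker the SD. The groups overlap for every gene, and single libraries stand apart for Ahr (26.4 CPM) and Cyp1a1 (19.1 CPM).

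Of the 79 other pathway genes 36 were tested between CD44+ and CD44- cells. None was called by edgeR, with 3 at an unadjusted p under 0.05, 2 called by DESeq2 and 0 by limma-voom. Hsp90ab1 passed without CD44- replicate 6 (edgeR adjusted p = 0.0227) or 8 (0.0438). Per list, the median log2 fold change was -0.30 for retinoid metabolism and binding, 0.32 for receptors and coregulators, 0.62 for response genes of retinoic acid, -0.53 for partners of the aryl hydrocarbon receptor, 0.32 for its response genes and 0.72 for the 2 tested genes that form ligands from tryptophan, beside 0.03 over all genes. The family gene Rxrb had 8 to 427 reads per CD44- and 17 to 384 per CD44+ library, and Arnt was at 18.1 ± 17.1 and 12.5 ± 13.1 CPM. Rarb and Cyp26a1 had 0 reads in all 14 libraries, and Cyp1b1 had at most 2.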

How the data were processed

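Messenger RNA from 26 sorted T cell samples was sequenced. Per the file headers, the authors deposited for each sample a table of whole-number read counts per gene, split into exon, intron and junction reads. Reads had been mapped to GRCm38, per the submitters' processing notes. The aligner is not given in the sources used here, nor is the counting program. Exon read counts were used as deposited. Gene models for overlaps were GENCODE M21, and upstream sequences came from RefSeq.

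Samples were grouped by the labels' diet and cell type. The 2 comparisons were fitted separately with edgeR 4.0.16 in R 4.3.3: filterByExpr by group, TMM factors, and the two-sided quasi-likelihood test with robust spread, calling genes at a Benjamini-Hochberg adjusted p under 0.05. The filter kept 11938 genes for the diets and 8343 for CD44. CPM used TMM-scaled library sizes, and correlations used log2 CPM with a prior count of 2 after subtracting group means. The scripts were tested on simulated data. No pair of libraries was identical (chi-square per degree of freedom at least 11.9 between libraries of a group, genes of 20 reads or more).

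Exon reads were 16401589 to 25415205 per CD4+ and 7180390 to 13378353 per CD44 library, and limits from reads of 0 use 3 reads and cover counting error only. Alternatives were other scalings, no filter, DESeq2 1.42.0, limma-voom (limma 3.58.1), unique or total gene reads, 1 fit of all groups, a replicate block and leaving out each library. Tables were made with pandas 2.3.3 in Python 3.11.15 and plots with matplotlib 3.10.9.

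The 10 genes, the pathway lists and the marker lists were chosen with earlier results of these data known. All 10 genes are named. A gene of the pathway lists is not reported here and is left out of their counts. Other pathway genes are named if called, at most the 6 with the largest change per list, plus Rarb, Rxrb, Rxrg, Arnt, Cyp26a1, Aldh1a1, Aldh1a3 and Cyp1b1. For genes whose mean log2 CPM was 2 or more, up to 3 most correlated genes are named.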

Additional observations from a re-analysis of the deposited data

Results flagged for a closer look

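In 6 of 34 gene and group combinations 1 library stood apart from the rest of its group by Dixon's criterion. Chance meets it in about 1 of 20 groups of independent, normally spread values. Low counts need not follow that spread and the combinations share libraries, so the 2 rates cannot be set against each other. Rarg was at 6.57 CPM in conventional replicate 6, with the next lowest library at 14.2 CPM. Cyp1a1 in the same library was highest, at 2.13 CPM from 35 reads, with the next at 0.984 CPM. Ahrr was at 2.83 CPM in elemental replicate 5, from 46 reads, with the next at 1.13 CPM.

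Ahr was at 26.4 CPM in CD44+ replicate 8, from 183 reads, with the next at 5.82 CPM. In CD44- replicate 1 Ahr was at 5.76 CPM, from 60 reads, with the next at 1.52 CPM. Cyp1a1 was at 19.1 CPM in CD44- replicate 5, from 173 reads, and at 0 in every other CD44- library.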

How the results depend on the processing

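Between the diets, Dhrs3 and Cyp26b1 kept their direction and their call in 21 of 22 alternatives each, at log2 fold changes of 0.89 to 1.04 and 1.98 to 2.25, and lost the call when all 4 groups were fitted together. The count of genes called was 4070 with limma-voom and quality weights, 2 with all 4 groups in 1 fit, and 1299 to 3865 when 1 library was left out (1299 and 1316 without replicate 4 of the conventional or elemental diet, 3865 without conventional replicate 6). Pathway genes called were 30, 0 and 10 to 27 under the same changes, beside 15, the 27 without conventional replicate 6. Scaling by library totals alone moved the median log2 fold change of all genes by -0.11, and 45.0% of called genes were then higher, against 55.6% with TMM. Rara (log2 fold change 0.12) turned to -0.033 with library totals and -0.0024 with limma-voom, and ran from -0.095 (without conventional replicate 6) to 0.24 when 1 library was left out. Rarg (0.12) turned to -0.0036 with library totals and ran from -0.040 (without elemental replicate 2; -0.020 without conventional replicate 6) to 0.22. Cyp1a1 ran from -0.70 to 0.32 and was above 0 without conventional replicate 6 or elemental replicate 1, 2, 4 or 6. In all these the cause was not tested. With all 4 groups in 1 fit every pathway call between the diets was lost.

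Between CD44+ and CD44- cells the count of genes called was 821 with DESeq2, 101 with total gene reads, 1748 with all 4 groups in 1 fit and 36 to 87 when 1 library was left out. The lowest were 36 without CD44+ replicate 5 or 7, 37 without CD44+ replicate 6 and 41 without CD44- replicate 4. Pathway genes called were 2 with DESeq2, 13 with all 4 groups and 0 to 1 when 1 library was left out. With all 4 groups 1 of the 10 genes, Cyp1a1, was called (edgeR adjusted p = 0.0251), with its reads nearly all in 1 library. Dhrs3 turned to -0.48 with limma-voom and ran from -0.014 (without CD44+ replicate 8) to 0.47 when 1 library was left out, and Rara to 0.32 with limma-voom.

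Replicate numbers are shared between groups. The correlation of deviations between same-numbered libraries was -0.14 to 0.27 over the 6 diet numbers, highest for replicate 6. Of these 2 were above 0.1, and 2 libraries were closest to their own number. Over the 7 CD44 numbers the correlation was -0.04 to 0.12 (1 above 0.1, 1 closest to its own). With a replicate block 2033 genes were called between the diets, among them Dhrs3, Cyp26b1 and Il4i1 (edgeR adjusted p = 0.0222, beside 0.114 without the block), and 37 between CD44+ and CD44- cells, where Dhrs3 was -0.12 and Rara 0.034. Depth limited Aldh1a2, Ahrr and Cyp1a1 throughout and Cyp26b1 in the CD44 libraries.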
